A study of Mus musculus with 6 samples.

Results

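Microglia, the resident macrophages of the brain, meet reactive oxygen species from their own respiration and from phagocytosis. Described here are 38 genes of the antioxidant defence that is run by the transcription factor NRF2 (gene Nfe2l2), by glutathione and by thioredoxin. They were picked by name from a table of 55487 Ensembl genes, and each name matched 1 row. Of the 38, 37 passed a filter on low counts and were tested; Me1 did not. As background, KEAP1 holds NRF2 in the cytosol and passes it to the proteasome; oxidants or electrophiles release it, and NRF2 then pairs with a small MAF protein at antioxidant response elements. The autophagy receptor p62 can bind KEAP1, which ties this pathway to autophagy. Glutathione and thioredoxin are the main thiol reductants of the cell, and their enzymes draw electrons from NADPH.

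RNA was sequenced from cortical microglia of female mice that were 20 months old, 1 mouse per library and 3 libraries per group. Control mice, littermates of the knockouts, had the genotype Atg7-fl/fl, that is, floxed alleles of the autophagy gene Atg7 and no Cre. Knockout mice were Atg7-fl/fl;Cx3cr1-CreERT2, so that a ligand-dependent Cre made from the Cx3cr1 locus, which is active in microglia and other mononuclear phagocytes, removes floxed Atg7. Both groups carried the floxed alleles, only the knockouts carried the Cre, and loss of Atg7 cannot be told apart from presence of the Cre allele; whether and when a Cre ligand was given is not stated in the sources used here. Sorted cells were live, CD11b positive and of intermediate CD45 staining.

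Depth ran from 1254380 reads (control 3) through 3789208 (knockout 2) to between 21282335 and 39389527 in the other 4 libraries, called deep here. Atg7 itself was at 62.9 CPM ± 5.46 (SD, n = 3) in controls and 25.1 CPM ± 1.39 in knockouts (edgeR adjusted p = 0.0147), where CPM are read counts scaled to a common library size with TMM factors. Values of single libraries stand in the order of their replicate numbers. All 10 microglial markers examined were detected in every library, with summed levels of 61374 to 66809 CPM in controls and 48922 to 54328 CPM in knockouts; 1 of them, Cx3cr1, which holds the Cre, was called lower. Control 3 stood apart: it was the lowest control for 29 of the 37 tested antioxidant genes (78.4%), and for 52.6% of all genes tested. It had 10 of the 38 genes at fewer than 10 reads and 5 at 0 reads, and a floor of 3 reads equalled 2.36 CPM there against 0.0789 CPM in control 1. Results are therefore also given without the shallow libraries, control 3 and knockout 2.

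Of the antioxidant genes, 1 rose in the knockouts and 0 fell at an edgeR adjusted p under 0.05, the meaning of called here. Among all 15787 genes tested, 0.0317% were called higher and 0.0127% lower, so calls were few everywhere. The called gene was Osgin1, a stress-induced NRF2 target whose product restrains growth. At an unadjusted p under 0.05, 5 of the 37 were higher (Osgin1, Mgst1, Prdx1, Cat and Gsto1) and 0 lower, against 2.34% and 1.98% of all genes. DESeq2 called 2 higher, Osgin1 and Mgst1 (0.305% of genes with an adjusted p), limma voom called 1, Osgin1 (0.057%), and neither called any lower. In the 4 deep libraries alone, Osgin1, Mgst1 and Gstm1 were higher at an unadjusted edgeR p under 0.05 (3.3e-05, 0.00151 and 0.00238). Txnrd2 and Gstp1 were lower there (0.00178 and 0.0164). Prdx1, Cat and Gsto1 were no longer under 0.05 (0.0789, 0.0748 and 0.142). The share of all genes is not given for that fit.

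Most of the other differences were small and lay above 0. The log2 fold change, knockout over control, was above 0 for 30 of 37 antioxidant genes and for 52.5% of all genes tested, with medians of 0.20 and 0.02. All 3 knockouts lay above all 3 controls in 11 of the 37 genes (6.59% of all genes), and all below in 0 (4.47%). In the 4 deep libraries alone 24 of 37 were above 0, with a median of 0.14, beside 7789 of all 15481 genes fitted. Without control 3 alone 24 were above 0 (median 0.13), and without knockout 2 alone 29 (median 0.17). The median was 0.28 without control 1, 0.39 without control 2, 0.21 without knockout 1 and 0.20 without knockout 3. The size of the difference thus depended on the libraries kept. By the median it was smallest without control 3 and largest without control 2. By library, the median of the 37 genes against the mean of the controls was 0.04, 0.16 and -0.29 on the log2 scale in the controls, and 0.27, 0.22 and 0.18 in the knockouts. Controls 1 and 2 thus lay nearer to the knockouts than to control 3 by this measure. The members were chosen with earlier results of these data known, so the counts describe them and are not independent evidence of a direction.

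Among the NRF2 target genes, Osgin1 (ENSMUSG00000074063) had 14.2, 14.7 and 15.7 CPM in the control libraries and 40.7, 35.8 and 57.9 CPM in the knockout libraries. The controls lay within a narrow band and every knockout was far above it. The means were 14.8 CPM ± 0.79 and 44.8 CPM ± 11.6 (SD, n = 3), a log2 fold change of 1.61 (SE 0.24; adjusted p = 0.0194 by edgeR). In control 3 the value rests on 20 reads, and in knockout 2 on 138. The fold change was as large in the 4 deep libraries (1.77, adjusted p = 0.0241), but the call was lost when any library other than control 3 was left out (log2 fold changes 1.36 to 1.73, highest adjusted p = 0.151). It was also lost in edgeR without robust estimation (adjusted p = 0.103) and in voom with library weights (0.0579).

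Nqo1 and Me1, classic NRF2 targets in liver and many cell lines that encode a quinone reductase and the cytosolic malic enzyme, were barely detected. Nqo1 had 1, 26 and 0 reads in the control libraries against 40, 4 and 0 reads in the knockouts. Its groups overlapped (log2 fold change 1.13, SE 1.47), and knockout 3, a deep library, had 0 reads where 3 reads would equal 0.139 CPM. Me1 had 6 reads in control 2, 6 in knockout 3 and 0 in the other 4 libraries, and was not tested. With so few reads, in deep libraries too, a change of either gene could not be judged.

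**Figure D1:**
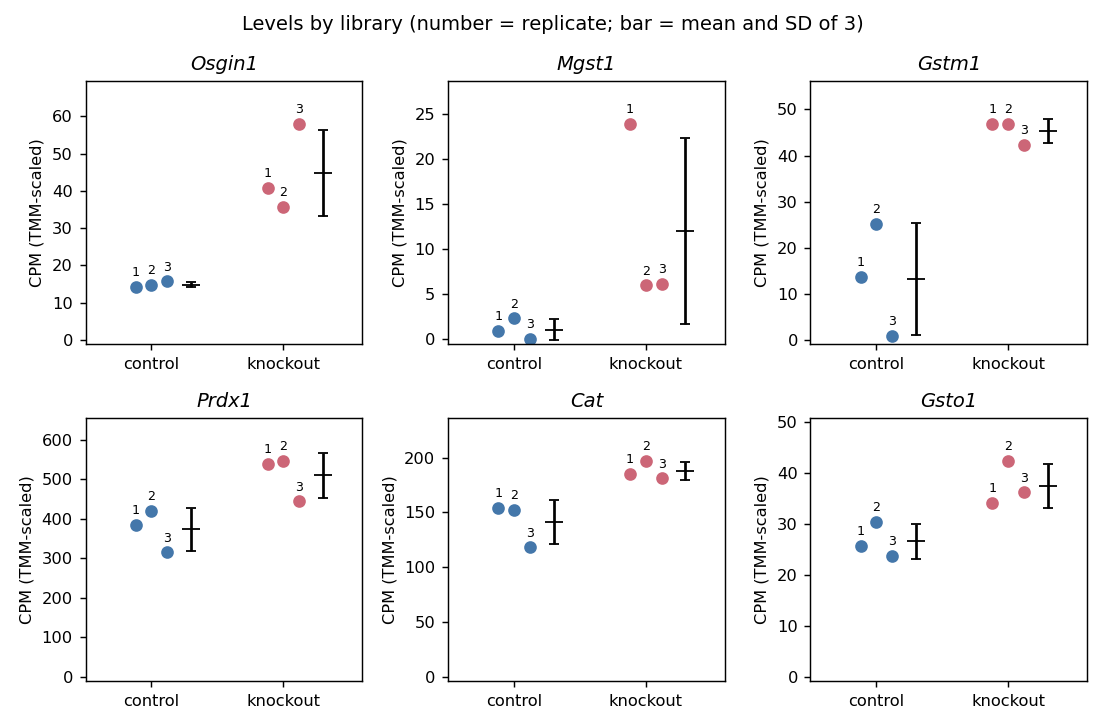
Level of 6 antioxidant genes in each library, in TMM-scaled CPM on the vertical axis (linear, from 0), for the 3 controls and 3 knockouts; numbers are replicate numbers and the bar shows mean and SD. The 5 genes with an unadjusted p under 0.05 and Gstm1 are drawn: in each, every knockout lies above every control, Mgst1 is set apart by knockout 1 (23.9 CPM), and control 3 is the lowest control in all but Osgin1.

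The antioxidant response element was looked for in the promoters of these genes, since it is the sequence through which NRF2 acts. The rule that picked the genes did not read it, but several of them are known as NRF2 targets, so its share is not independent of the choice. Windows from 250 bases before to 50 after each start site came from RefSeq on GRCm38.p6, and 33 of the 38 genes had a window. The core searched was TGACNNNGC on either strand, which reads GCNNNGTCA where it lies on the opposite strand. It was present in 9 of the 33 genes (27.3%) and in 14.0% of all 27025 genes with windows; a longer form, with A or G before the core, was in 3 of 33 (9.09%) and in 7.20%. A match describes letters only and no binding was measured. The sites in the 9 genes follow, to show how their surroundings differ, read along the gene with the core in capitals.
Gclm, chr3:122245415-122245439, plus strand: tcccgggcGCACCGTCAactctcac
Mafg, chr11:120633753-120633777, minus strand: ctgcaggaGCACGGTCAacccggcg
Me1, chr9:86695904-86695928, minus strand: tgccgccgTGACTCAGCgcttctcg
Mgst1, chr6:138140463-138140487, plus strand: ggggcttgGCACGGTCAggaggcgg
Nfe2l2, chr2:75704887-75704911, minus strand: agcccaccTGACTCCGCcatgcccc
Prdx1, chr4:116685458-116685482, plus strand: gggaaagcGCTGAGTCAtcccccgt
Sod1, chr16:90220698-90220722, plus strand: caaggtggGCGTGGTCAgactcagg
Srxn1, chr2:152105544-152105568, plus strand: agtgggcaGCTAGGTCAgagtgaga
Txnrd1, chr10:82859106-82859130, plus strand: ggatttttGCTTTGTCAttctgaca

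Both whole windows that follow are shown because Osgin1 is the called gene, and because Prdx1, a peroxiredoxin gene, had the highest level in CPM of the genes with a core and an unadjusted p under 0.05. The Osgin1 window held 0 matches to the core and the Prdx1 window 1, again in capitals; the Prdx1 core is one of the 3 in the longer form, with Me1 and Txnrd1.
Osgin1, chr8:119436897-119437196, plus strand: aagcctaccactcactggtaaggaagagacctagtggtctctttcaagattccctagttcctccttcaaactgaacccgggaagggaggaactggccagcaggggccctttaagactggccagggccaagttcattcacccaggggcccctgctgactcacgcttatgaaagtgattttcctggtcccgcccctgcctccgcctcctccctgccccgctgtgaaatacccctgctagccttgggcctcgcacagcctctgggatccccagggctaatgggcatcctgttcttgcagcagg
Prdx1, chr4:116685349-116685648, plus strand: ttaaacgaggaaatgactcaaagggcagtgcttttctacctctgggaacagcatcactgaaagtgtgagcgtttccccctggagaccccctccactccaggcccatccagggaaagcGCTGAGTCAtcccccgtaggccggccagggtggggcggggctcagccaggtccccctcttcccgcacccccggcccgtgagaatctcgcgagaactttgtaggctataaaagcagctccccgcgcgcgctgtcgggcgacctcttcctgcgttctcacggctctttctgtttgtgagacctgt

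Of the 9 genes with a core in the window, Mgst1 had an unadjusted p under 0.05 together with Prdx1, while Nfe2l2, Mafg and Sod1 had log2 fold changes of -0.06, 0.12 and -0.03. Srxn1, Txnrd1 and Gclm had 0.90, 0.51 and 0.51, and Me1 was not tested. Osgin1, Cat and Gsto1, the remaining genes with an unadjusted p under 0.05, had no core in their windows. Sequence outside the windows was not searched, so this does not show that a gene lacks the element.

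The regulators did not pass the test. Nfe2l2, which encodes NRF2, had 438, 408 and 451 CPM in the control libraries and 455, 353 and 439 CPM in the knockout libraries (log2 fold change -0.06, SE 0.15). Its groups overlapped widely, and the lowest value was that of knockout 2. Keap1, the inhibitor, had 64.6, 49.1 and 49.5 CPM against 53.5, 69.4 and 65.8 CPM (0.20, SE 0.19), with control 1 inside the range of the knockouts. Bach1, a heme-sensitive repressor at the same elements, had 52.5, 46.8 and 26.7 CPM against 42.6, 33.8 and 47.7 CPM (-0.05, SE 0.24, and 0.01 when scaled by library totals). Control 3 was the lowest of all 6 for Bach1, with 34 reads. Mafg, a small MAF partner of both factors, had 120, 131 and 114 CPM against 113, 139 and 145 CPM (0.12, SE 0.16). Transcript levels do not measure NRF2 protein, which is mainly set by its turnover.

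None of the 4 genes of glutathione synthesis and recycling was called. Gclc and Gclm encode the catalytic and modifier subunits of the enzyme for the first step. Gclc, the most abundant of the 4 in CPM over all 6 libraries though not in the controls alone, had 13.2, 16.4 and 14.1 CPM in controls and 13.4, 11.9 and 22.1 CPM in knockouts (log2 fold change 0.13, SE 0.31), with the highest and the lowest value both among the knockouts; without knockout 3 it was -0.22. Gclm had 8.62, 6.0 and 4.71 CPM against 9.56, 8.83 and 10.0 CPM. All 3 Gclm values of the knockouts were higher, by a small margin over control 1, and control 3 had 6 reads (0.51, SE 0.38, edgeR unadjusted p = 0.208). Gss, the synthetase of the last step, had 15.3, 12.5 and 17.3 CPM against 12.5, 7.01 and 13.3 CPM (-0.42, SE 0.33). The low value was that of knockout 2, with 27 reads, and the deep libraries gave -0.11. Gsr, which reduces oxidized glutathione, had a log2 fold change of 0.29 (SE 0.34).

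In the thioredoxin system the cytosolic and the mitochondrial reductase genes had fold changes of opposite sign, and neither was called. Txnrd2 (ENSMUSG00000075704), the mitochondrial selenoenzyme, had 24.6, 21.5 and 9.43 CPM in the control libraries and 11.1, 13.2 and 11.3 CPM in the knockout libraries. Controls 1 and 2 lay above every knockout, and control 3, with 12 reads, lay below them all. Its log2 fold change was -0.70 (SE 0.33), the lowest of the 37 genes, and -1.04 in the 4 deep libraries (unadjusted p = 0.00178, edgeR adjusted p = 0.187). Txnrd1, the cytosolic selenoenzyme, had 20.3, 13.7 and 4.71 CPM against 22.8, 18.7 and 17.6 CPM (0.51, SE 0.37), with control 1 inside the range of the knockouts and control 3 low (6 reads). The deep libraries gave 0.24 for Txnrd1. The difference between the reductases was not tested.

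Txn1, the cytosolic thioredoxin, had 25.3, 28.6 and 23.6 CPM against 34.5, 39.5 and 30.4 CPM. The groups did not overlap, with knockout 3 close above control 2 (log2 fold change 0.41, SE 0.21, edgeR unadjusted p = 0.0745, adjusted p = 0.999). Txn2, its mitochondrial counterpart, overlapped, at 71.5 to 128 CPM in controls and 92.8 to 114 CPM in knockouts (0.06, SE 0.20). Txnip, which binds and inhibits thioredoxin and is induced by glucose, was the most abundant of the system, with 387, 386 and 315 CPM against 437, 410 and 424 CPM. Every Txnip value of the knockouts was above the controls, by little over controls 1 and 2 (0.22, SE 0.14). Srxn1, the sulfiredoxin that repairs overoxidized peroxiredoxins, had 4.29, 3.82 and 0.786 CPM against 4.62, 9.09 and 5.30 CPM; its log2 fold change of 0.90 (SE 0.55) was 0.28 in the deep libraries, and control 3 had 1 read.

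Of the 6 peroxiredoxin genes, whose products reduce hydrogen peroxide with electrons from thioredoxin or, for Prdx6, glutathione, 5 had a fold change of 0.00 or more and 0 were called. Prdx1 (ENSMUSG00000028691), the abundant cytosolic form and a known NRF2 target, had 384, 420 and 315 CPM in the control libraries and 539, 547 and 444 CPM in the knockout libraries. The groups did not overlap, and in each the replicate 3 library was the lowest. The means were 373 CPM ± 53.2 and 510 CPM ± 57.5 (log2 fold change 0.45, SE 0.15, edgeR unadjusted p = 0.0107, adjusted p = 0.878). The deep libraries gave 0.28 (unadjusted p = 0.0789). Prdx5, found in mitochondria and peroxisomes, had 166, 177 and 127 CPM against 208, 194 and 176 CPM (0.29, SE 0.17); knockout 3 lay just under control 2. Prdx6, Prdx2 and Prdx3 had 0.20, 0.05 and 0.00, and Prdx3 was at -0.01 with DESeq2 size factors. Prdx4, the form of the endoplasmic reticulum, was the lowest at -0.23 (SE 0.19), and -0.33 in the deep libraries.

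Among the enzymes that remove peroxide and superoxide, catalase came nearest to the threshold. Cat had 154, 152 and 118 CPM in controls and 185, 197 and 181 CPM in knockouts, without overlap and with little spread among the knockouts (log2 fold change 0.41, SE 0.16, edgeR unadjusted p = 0.0213, adjusted p = 0.999). Gpx1, the cytosolic glutathione peroxidase and a selenoprotein, had the highest level here at 558, 678 and 459 CPM against 482, 637 and 634 CPM. Its groups overlapped, and the fold change (0.05, SE 0.17) was -0.15 in the deep libraries. Sod2, the mitochondrial manganese superoxide dismutase, had 60.9, 57.9 and 61.3 CPM against 66.2, 62.9 and 63.8 CPM. These do not overlap, but the difference is small (0.10, SE 0.17). Sod1, the copper and zinc form, had -0.03 (SE 0.15), and 0.02 when scaled by library totals.

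**Figure D2:**
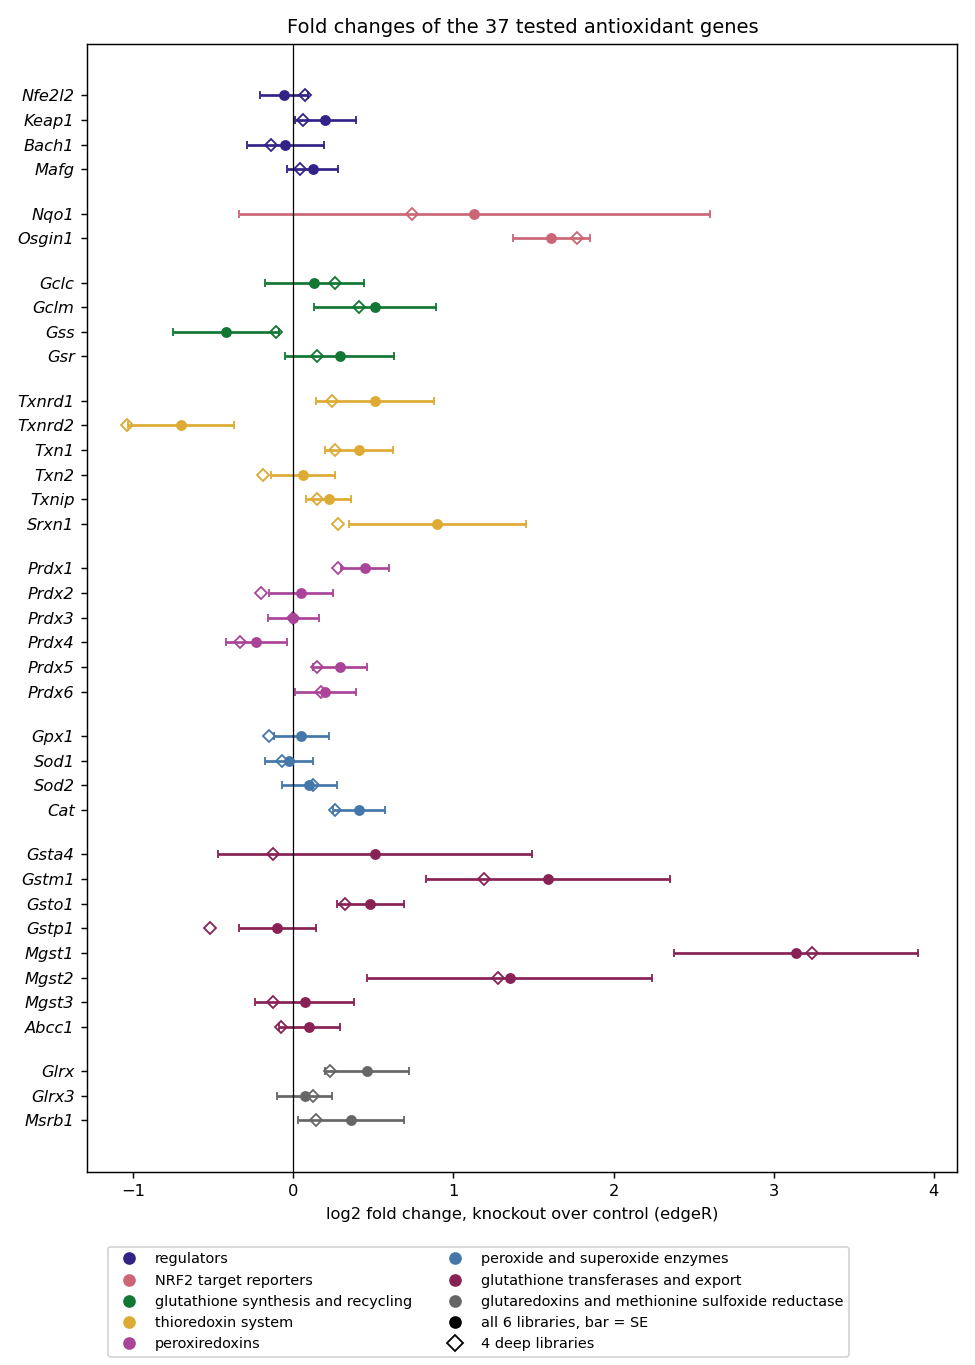
Log2 fold change of knockout over control (horizontal axis) for the 37 tested genes, grouped by role; filled points are the fit to all 6 libraries with the SE as a bar, and open diamonds the fit to the 4 deep libraries. Most points lie near 0, while Mgst1 (3.14), Osgin1 (1.61) and Gstm1 (1.59) lie farthest right and Txnrd2 farthest left (-0.70), and many diamonds lie nearer to 0 than their points.

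The widest range was found among the 8 genes of glutathione transferases and export. Mgst1 (ENSMUSG00000008540), a microsomal transferase and peroxidase, had 0.894, 2.29 and 0 CPM in the control libraries and 23.9, 5.97 and 6.14 CPM in the knockout libraries. These are 34, 85 and 0 reads against 808, 23 and 132. All knockouts were higher, and knockout 1 was well above the others. The means were 1.06 CPM ± 1.15 and 12.0 CPM ± 10.3 (log2 fold change 3.14, SE 0.76; adjusted p = 0.406 by edgeR). DESeq2 called it (adjusted p = 0.00393), as did edgeR without the filter (2.24e-05), and voom did not (0.262). Leaving out knockout 1 gave 2.20 (edgeR adjusted p = 1) and leaving out control 2 gave 4.05 (0.362).

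Markers of other myeloid cells were also highest in knockout 1. Border-associated macrophages line the vessels and meninges, and 9 of their 10 listed markers summed to 15.9, 41.5 and 91.2 CPM in the control libraries and 257, 169 and 65.6 CPM in the knockout libraries. The tenth, Stab1, was at 401 to 548 CPM in every library and was left out of the sum after its level was seen. All 9 had a fold change above 0. Of these, 0 were called by edgeR and 2, Ms4a7 and Pf4, by DESeq2, which also called Mgst1. Lyve1 and Cd209f were at 0 in control 1, and Pf4 in control 3. Without Csf3r, left out for the same reason, 9 of 10 neutrophil markers summed to 44.9, 363 and 481 against 2002, 654 and 143 CPM. Of these, 8 of 8 tested were above 0 and 0 were called by either tool. Csf3r went the other way (log2 fold change -0.22, SE 0.14), at 537, 458 and 509 against 430, 384 and 476 CPM. With Csf3r, 8 of 9 tested were above 0. Ly6g and Mmp8 were at 0 in a control. A sum of 9 monocyte markers was 31.2, 52.1 and 62.1 CPM against 162, 90.9 and 44.6 CPM. Of these, 6 of 7 tested were above 0, 0 were called by edgeR and 1, Lyz1, by DESeq2. Lyz1 was also called by voom (voom adjusted p = 0.0467), at 2.13, 2.29 and 4.71 CPM against 12.3, 11.7 and 8.65 CPM. Ly6c2 and S100a4 were at 0 in a control. Knockout 1 was the highest library in Mgst1 and in each of these sums. Their part in the Mgst1 result was not tested, and in bulk RNA fewer cells of a type and less RNA per cell cannot be told apart. Their part in the Osgin1 result was not tested either; knockout 3, its highest library, had the lowest of the 3 knockout values in each sum. T and NK cell markers summed to at most 1.61 CPM and neuron markers to at most 6.29 CPM in any library. Sums of B cell, astrocyte, oligodendrocyte, and endothelial and mural markers overlapped between the groups, and 0 of their genes were called by edgeR. DESeq2 called 1 of them higher, the mural marker Pdgfrb (DESeq2 adjusted p = 0.0244). Pdgfrb had 0.0526, 0.0538 and 0 CPM in the control libraries and 2.34, 1.56 and 1.86 CPM in the knockout libraries.

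Gstm1 (ENSMUSG00000058135), a cytosolic transferase, was singled out after its values were seen. It had 13.7, 25.2 and 0.786 CPM in the control libraries and 46.8, 46.8 and 42.3 CPM in the knockout libraries. The knockouts lay close together above all controls, and control 3 had 1 read. Its log2 fold change was 1.59 (SE 0.76, edgeR unadjusted p = 0.0935, adjusted p = 0.999). In the 4 deep libraries, which leave out that control, it was 1.19 with an unadjusted p of 0.00238 and an adjusted p of 0.212. Gstm genes are close paralogs on which reads can be shared. Gsto1, the omega-class transferase, had 25.6, 30.3 and 23.6 CPM against 34.0, 42.3 and 36.1 CPM, without overlap (0.48, SE 0.21, edgeR unadjusted p = 0.0391, adjusted p = 0.999).

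Gstp1, the most abundant transferase gene of the group in CPM, had 68.2, 81.2 and 41.6 CPM against 48.0, 77.1 and 56.9 CPM. Control 3 and knockout 1 were the low values, and the fold change of -0.10 (SE 0.24) was -0.52 in the deep libraries (unadjusted p = 0.0164, edgeR adjusted p = 0.482). Reads of Gstp1 can be shared with Gstp2 and with a processed pseudogene, which had 5 to 249 reads per library. Mgst2 and Gsta4 were near the detection limit, each with 0 reads in control 3 and under 65 reads in every library. Mgst3 had 0.07 (SE 0.31), and Abcc1, which exports glutathione conjugates, 0.10 (SE 0.19).

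The glutaredoxins, which reduce protein-glutathione disulfides, and the methionine sulfoxide reductase gene gave no call. Glrx had 31.4, 30.7 and 15.7 CPM in controls and 42.8, 37.7 and 30.2 CPM in knockouts (log2 fold change 0.46, SE 0.26), with knockout 3 just under controls 1 and 2. Glrx3, which also takes part in iron-sulfur cluster handling, had 62.2, 60.0 and 75.4 CPM against 68.3, 72.7 and 64.9 CPM, one of 5 genes for which control 3 was the highest control (0.07, SE 0.17). Msrb1, a selenoprotein, had 10.3, 10.6 and 9.43 CPM against 12.8, 16.4 and 10.3 CPM (0.36, SE 0.33).

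Levels of different genes were compared per kilobase of exon, using exon lengths from GENCODE M21. Gpx1 stood first at 392 CPM per kilobase ± 76.0 (SD, n = 3) in controls, followed by Prdx1 (123 ± 17.5), Txnip (116 ± 13.2) and Nfe2l2 (114 ± 5.87), 3 neighbours that do not differ beyond their spread. Prdx5 (73.3 ± 12.2) and Prdx3 (68.4 ± 6.71) came next and also lie within each other's spread, as do Sod1 (55.9 ± 1.69) and Cat (54.0 ± 7.67). The inhibitor Keap1 was at 11.6 ± 1.88 and Bach1 at 6.80 ± 2.19, both far below Nfe2l2. The glutathione synthesis genes were low, from 1.02 ± 0.317 for Gclm to 3.87 ± 0.433 for Gclc, and Nqo1 (0.156 ± 0.255), Mgst2 (0.145 ± 0.186) and Me1 (0.0140 ± 0.0242) closed the order. The first 5 places were the same in the knockouts; Gstm1 went from place 20 to 11, Mgst1 from 34 to 26 and Osgin1 from 24 to 18. Together the 38 genes made up 0.292% to 0.349% of scaled reads in controls and 0.375% to 0.386% in knockouts, and Gpx1, Prdx1, Nfe2l2 and Txnip had the highest mean CPM.

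**Figure D3:**
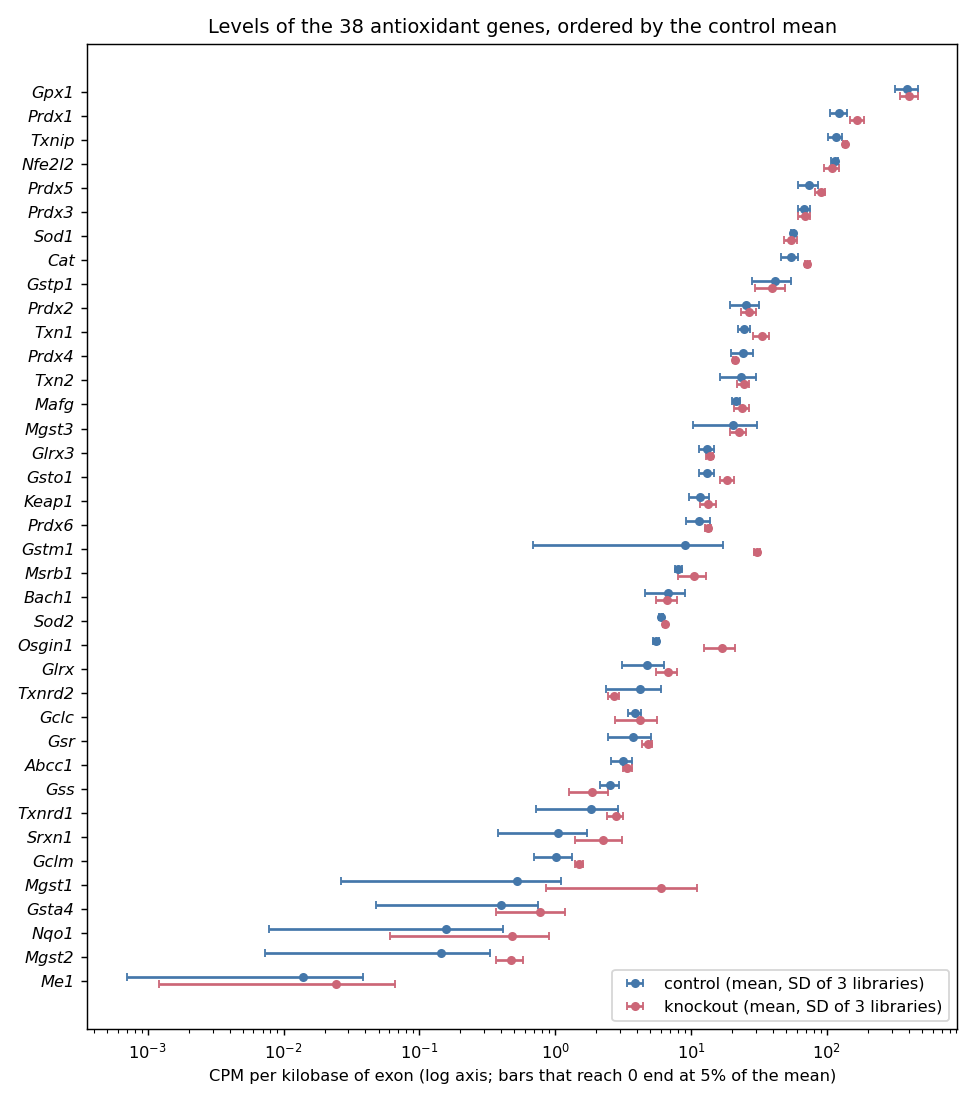
Level of the 38 genes in CPM per kilobase of exon (horizontal log axis), ordered by the control mean; points are means and bars the SD of 3 libraries, and bars that would reach 0 are drawn to 5% of the mean. The order runs from Gpx1 (392 in controls) to Me1 (0.0140), and Osgin1, Gstm1 and Mgst1 are among the genes whose means lie far apart. The means of the barely detected Nqo1 and Mgst2 also lie apart, but their groups overlapped.

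Other genes of the pathway were followed through 4 lists with 90 names, of which 79 were tested. Over these lists 2 genes were called higher and 0 lower, beside 0.0317% and 0.0127% of all genes tested. Of the 79 fold changes, 52 were above 0 (median 0.12), beside 52.5% of all genes tested (median 0.02). In the 4 deep libraries 48 of 79 were above 0 (median 0.06). The list of NRF2 targets outside the 38 genes held both called genes, Blvrb and Slc39a4. Slc39a4 is not an established NRF2 target and was listed with its earlier result known. Without it, 17 of 20 tested targets were above 0 (median 0.27) and 1 was called. In the 4 deep libraries 16 of these 20 were above 0 (median 0.17). Blvrb, the biliverdin and flavin reductase gene, had 56.3, 72.3 and 62.9 CPM in the control libraries and 112, 161 and 148 CPM in the knockout libraries (log2 fold change 1.13, SE 0.18; adjusted p = 0.0409 by edgeR). Slc39a4, a zinc importer gene, had 28.1, 31.4 and 28.3 CPM against 65.7, 98.7 and 83.4 CPM (1.49, SE 0.20, adjusted p = 0.0109). In both genes each knockout was above each control. Blvrb was not called by voom (adjusted p = 0.0659) or by edgeR in the 4 deep libraries (0.0945), while Slc39a4 was called by both (0.041 and 0.0363). Over the 4 lists 0 genes were called without control 1 or without knockout 2, and 1 without control 2, knockout 1 or knockout 3. Without 1 library at a time, the edgeR adjusted p of Blvrb reached 0.394 and that of Slc39a4 0.0984.

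The 12 other regulators had a median of -0.02 and 0 calls. Nfe2l1, the relative of NRF2 that governs proteasome genes, had -0.45 (SE 0.24). Sqstm1, which encodes p62, had 124, 190 and 94.3 CPM in controls and 146, 197 and 195 CPM in knockouts (0.39, SE 0.23). Control 2 lay within the range of the knockouts, and control 3 had 120 reads. The deep libraries gave 0.11 for Sqstm1. In GENCODE M21 other genes share 17.3% of its exonic bases. Maff was under 2 CPM in every library (1.44, SE 1.02). The 26 tested genes of the wider glutathione list had a median of 0.09 and 0 calls; Gstt2 (-0.83, SE 0.34), Slc25a39, a mitochondrial glutathione importer gene (-0.60, SE 0.25), and Gstm5 (0.72, SE 0.31) had the smallest p. The 20 tested thioredoxin-fold and sulfoxide reductase genes also had a median of 0.09 and 0 calls, with Aifm2 (1.67, SE 0.88, under 4 CPM), Txnl4b (0.32, SE 0.21) and Msrb2 (-0.25, SE 0.17) having the smallest p.

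**Figure D4:**
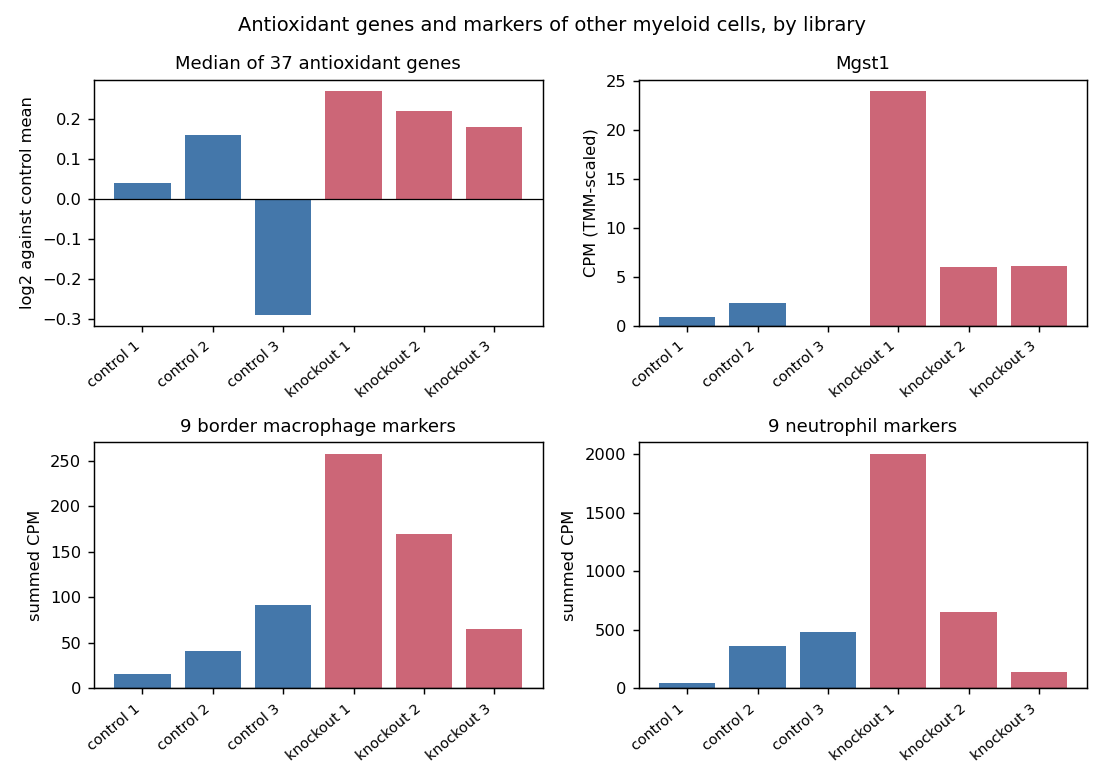
By library, the median log2 level of the 37 tested antioxidant genes against the control mean, the level of Mgst1 in CPM, and the summed CPM of 9 border macrophage and 9 neutrophil markers; bars are single libraries and start at 0. The gene median is lowest in control 3 (-0.29), while Mgst1 and both marker sums are highest in knockout 1.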

How the data were processed

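The authors deposited whole-number read counts per Ensembl gene, 1 column per library and not normalized. The tools named in the submitters' processing notes are STAR, Salmon, bcl2fastq, and featureCounts of Subread, with the build GRCm39. Whether counting used strand is not stated there, so reads of overlapping genes cannot be told apart. In GENCODE M21, an annotation of the earlier GRCm38, other genes share 19.4% of the exonic bases of Txnip, 19.1% of Prdx5, 15.4% of Gss, 11.5% of Prdx2 and 10.9% of Keap1. Per the labels' protocols, cDNA was made from 10 ng of RNA with an RNA integrity score above 8 and amplified by PCR with no molecular identifier mentioned, so floors of 3 reads cover counting error only.

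Of 55774 rows, 287 repeated an identifier with the same counts and were left out; 0 rows named no gene and 0 columns belonged to other samples. Genes were filtered with the default of edgeR 4.0.16 (R 4.3.3), scaled by TMM and tested with its robust quasi-likelihood F-test, group being the only term, with Benjamini-Hochberg adjustment over all 15787 genes. An SE is the fold change over the square root of F. DESeq2 1.42.0 and limma 3.58.1 (voom) were alternatives. The edgeR step was tested on simulated data. It called 12% of 100 genes changed by a log2 fold change of 1, and 79% of 100 changed by 2. Of its 104 calls, 13 were false. Only genes above a minimum level were changed, so the shares recovered do not cover genes with few reads, such as Nqo1 and Mgst2. Alternatives were other scalings, filters and tests, a replicate block, and leaving out each library or both shallow ones. Each library is labelled as a biological replicate.

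The members, role groups, pathway lists and markers were chosen with earlier results of these data known. Values per library are printed for called members, the regulators and, in each role group, the 2 members with the smallest p and the most abundant; Gstm1, Txnrd1, Txn2 and Srxn1 were added after their values were seen, and other members are given by fold change or reads alone. In pathway lists the called genes, or 3 with the smallest p, are named; Ero1a was not found under that symbol and Nnt matched more than 1 identifier, and both were left out. Promoter windows are on GRCm38.p6 and were not joined to coordinates of the counts. One monocyte marker is not reported here and was left out of its sum. This sum and the list of targets without Slc39a4 were set after the data were seen.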

Additional observations from a re-analysis of the deposited data

How the results depend on the processing

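Osgin1 was above 0 under all 16 alternatives, 25 of the 37 genes kept their direction under all of them, and 0 antioxidant genes were called lower under any. Of 589 values for single genes under an alternative, 47 had the other sign, in 12 genes, all with small fold changes or few reads. The number with a fold change above 0 ranged from 24 to 32. Calls depended on the test. Without the filter, 60 genes were called higher and 42 lower over the whole table, 2 of the antioxidant genes among them. DESeq2 called 46 and 34, with 2 antioxidant and 2 pathway genes. Voom called 9 and 6, with 1 antioxidant gene, Osgin1, and 1 pathway gene, Slc39a4. Voom with library weights called 2 higher and 2 lower, and edgeR without robust estimation 1 higher and 1 lower. Both had 0 antioxidant and 0 pathway genes. Without both shallow libraries 9 were called higher and 30 lower, with 1 antioxidant gene, Osgin1, and 1 pathway gene, again Slc39a4. Leaving out 1 library at a time gave 1 to 15 genes higher, 1 to 35 lower, 0 to 1 antioxidant genes and 0 to 2 pathway genes, and a median of the antioxidant genes between 0.13 and 0.39. The highest counts, 15 and 35, came without control 3, the shallowest library, and the median of 0.39 without control 2. The share of promoters with the motif was 9.09% in its longer form in place of 27.3%. Where a count moved, the cause was not tested.

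With the replicate number as a block (replicate block), 16 genes were called higher and 9 lower, and Osgin1 had a log2 fold change of 1.54 (edgeR adjusted p = 0.0058). The numbers are not known to pair mice: deviations of same-numbered libraries correlated at 0.30, -0.22 and -0.06 for numbers 1, 2 and 3, and only control 1 and knockout 1 correlated best with their own number.

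Values with the other sign were as follows on the log2 scale. Without both shallow libraries, Nfe2l2 had 0.07, Txn2 -0.19, Prdx2 -0.20, Prdx3 -0.0016, Gpx1 -0.15, Gsta4 -0.13, Mgst3 -0.13 and Abcc1 -0.08. Under voom, Txn2 and Mgst3 had -0.09, Prdx2 -0.13, Prdx3 -0.02, Gpx1 -0.05 and Abcc1 -0.03. Under voom with library weights, Txn2 had -0.03, Prdx2 -0.10, Prdx3 -0.04, Gpx1 -0.005, Mgst3 -0.06 and Abcc1 -0.02. With library totals, Bach1 had 0.01 and Sod1 0.02. Prdx3 had -0.01 with DESeq2 size factors and in DESeq2, -0.02 without the filter and -0.0037 with the stricter one. Leaving out 1 library at a time gave -0.15 to 0.03 for Nfe2l2, -0.26 to 0.14 for Bach1, -0.22 to 0.26 for Gclc, -0.12 to 0.32 for Txn2, -0.13 to 0.18 for Prdx2, -0.09 to 0.06 for Prdx3, -0.09 to 0.20 for Gpx1, -0.13 to 0.03 for Sod1, -0.32 to 0.12 for Gstp1, -0.19 to 0.46 for Mgst3 and -0.03 to 0.23 for Abcc1.

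Depth limited the genes with few reads: Nqo1, Me1, Gsta4, Mgst1 and Mgst2 had 0 reads in control 3, where values under 2.36 CPM rest on fewer than 3 reads. A p above the threshold does not show that a gene did not differ.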
